A study of Mus musculus with 23 samples.

Results

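Mesenteric arteries of mice infused with angiotensin II (Ang II) for 7 days were compared with arteries of sham-operated mice at the same time. Libraries were chosen by their label alone: 6 carried the label of 7-day Ang II and 6 that of 7-day sham, 12 of the 23 libraries in the series, and all genes were examined. The Ang II group held male C57BL/6J mice, 10 to 12 weeks old, with a subcutaneous ALZET osmotic minipump delivering 1000 ng Ang II per kg per minute for 7 days. The sham group held mice of the same strain, sex and age that had sham surgery, and what their surgery included beyond that word is not stated. The labels give no transgene or deletion for either group. Each library came from 1 animal by the animal numbers in the table header, and total RNA was sequenced after dissection of the arteries in RNAlater. Values are normalized reads, that is gene reads divided by 1 factor per library, so they compare a gene between libraries but not genes with each other. A gene was called when limma's moderated test gave a Benjamini-Hochberg adjusted p under 0.05 over the 14896 genes tested. Fold changes are on the log2(value + 0.5) scale, where 0 is no difference and 1 is a doubling of the value plus 0.5.

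Ang II, a pressor hormone, acts on smooth muscle through the AT1 receptors, which mice encode in Agtr1a and Agtr1b. Small arteries exposed to raised pressure or to Ang II are known to remodel. Their wall takes on collagen and elastic fibres, which fibroblasts and smooth muscle cells secrete as precursors, trim with peptidases and bind together with lysyl oxidases. Some cells of the wall also re-enter the cell cycle, and the genes of the late cycle, for spindle, kinetochore and cytokinesis, share promoter elements through which they are turned on together before mitosis.

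The libraries held 8670036 to 18817155 reads in Ang II arteries and 4471038 to 17470989 in sham arteries, with means of 13848268 ± 4742944 and 8898834 ± 4893066 (SD, n = 6 each, exact two-sided permutation p = 0.097). A single gene model, AY036118, took 0.0788% to 13.2% of the reads in Ang II arteries and 0.113% to 36.2% in sham arteries (exact permutation p = 0.078). Genes detected averaged 20090.2 ± 821 in Ang II libraries and 18861 ± 1135 in sham libraries (SD, n = 6 each, exact permutation p = 0.056), and the mitochondrial share of reads 18.8% ± 2.35 and 15.6% ± 3.17 (exact permutation p = 0.074). Adjusted over 5 library properties these 4 p-values were each 0.12, and the smallest p that 6 against 6 allows is 0.0022. The part of these properties in the results was not tested beyond the AY036118 term given with the counts. Smooth muscle markers summed over 7 genes lay between 5866 and 8394 in Ang II arteries and between 4853 and 8048 in sham arteries, and 14 endothelial markers between 1737 and 2103 against 1702 and 2257. Pancreatic acinar genes, which an artery does not express, took 7.59% to 16.2% of the reads in Ang II arteries and 9.09% to 19.8% in sham arteries. With bulk RNA, a change in the number of cells of a type and a change in RNA per cell cannot be told apart.

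Sham replicate 1 stood apart from the other libraries. Genes of sympathetic neurons were far higher in it: Dbh, the dopamine-to-noradrenaline enzyme, was at 410.1 there and at 0 to 17.1 in the other 5 sham libraries, and the noradrenaline transporter gene Slc6a2 was at 513 against 5.67 to 22.8. A sum over 9 neuron markers was 1627 in sham replicate 1, 316 in Ang II replicate 1, and 60.6 to 160.1 in the remaining 10 libraries. The same sum over 8 Schwann cell markers ran only between 195 and 454 over the 12 libraries. Sham replicate 1 also had the lowest mean of each matrix list described here except that of large proteoglycans. The main counts and some of the named genes, but not all of them, are therefore also given without it. The part of nerve tissue in the results was not tested beyond that.

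In all, 112 genes were higher in Ang II than in sham arteries and 10 were lower, 0.752% and 0.0671% of the genes tested and 0.819% together. Among the higher genes, 39 belonged to 14 lists of extracellular matrix genes, 24 to 5 lists of cell division genes and 49 to neither. Of these, 42 higher genes and 1 lower gene differed by 2-fold or more. The 6 Ang II values lay above all 6 sham values in 89 of the 112 higher genes and below them in 8 of the 10 lower ones, while over all genes tested 1.08% were separated upward and 0.141% downward. Unadjusted, 1383 genes had a p under 0.05. Without sham replicate 1 the counts were 74 higher and 11 lower, and 67 of the 112 and 7 of the 10 were still called. Leaving out Ang II replicate 1 gave 64 higher and 4 lower, and Ang II replicate 6 gave 62 and 6. Of the 112 higher genes, 58 were called without each of the 12 libraries in turn. With the AY036118 share as a term in the model 69 genes were higher and 5 lower.

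**Figure D1:**
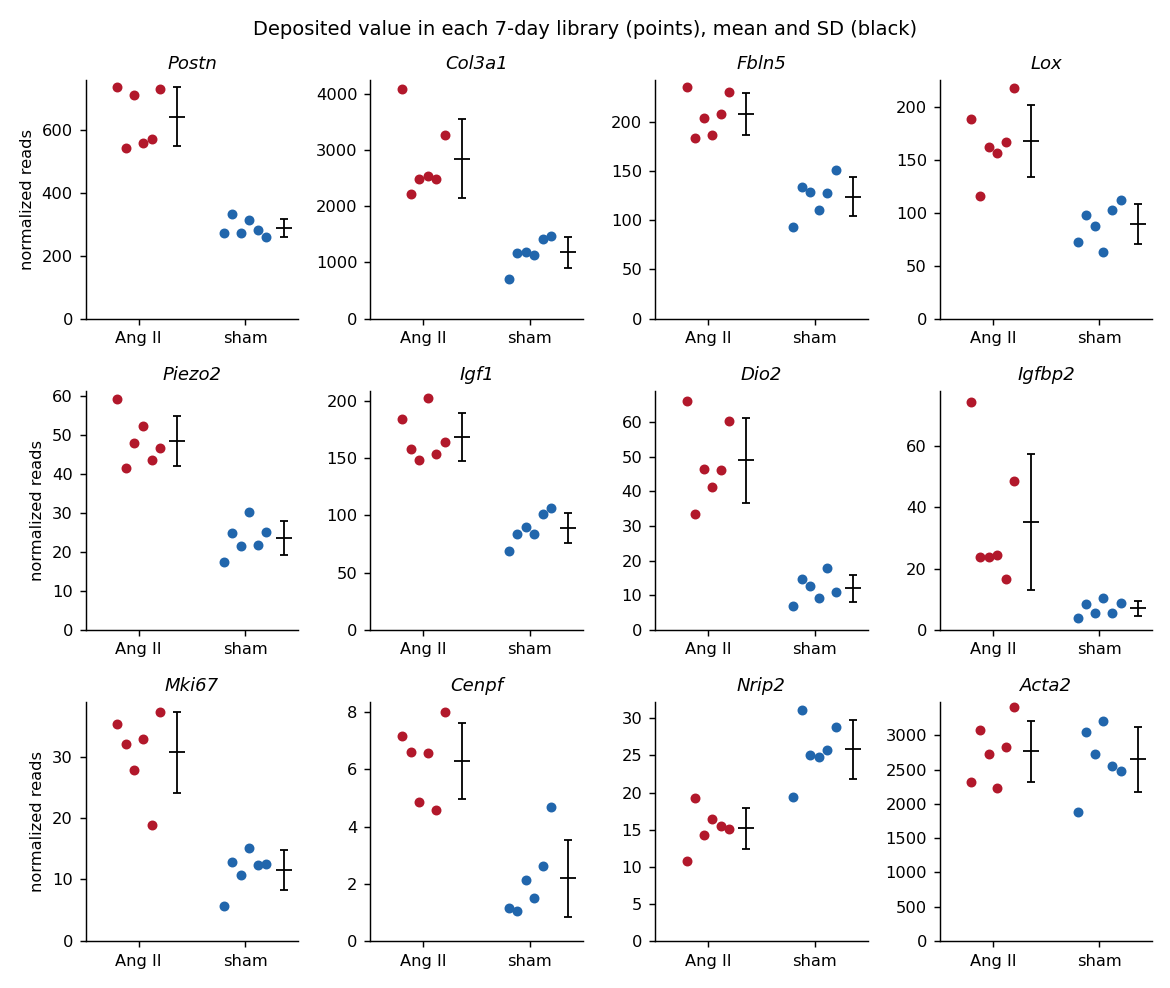
Normalized reads (vertical axes, starting at 0) of 12 genes in each 7-day library, Ang II left and sham right, with the mean and SD beside the points. The Ang II points lie above all sham points for Postn, Col3a1, Dio2 and Mki67 and below them for Nrip2, and the highest sham value of Cenpf, 4.68, passes the lowest Ang II value, 4.59, and the groups of Acta2 overlap.

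The most significant single genes outside the matrix and division lists encode a deiodinase, a growth factor and a mechanically gated channel. Dio2, the enzyme that turns thyroxine into the active hormone T3 inside cells, had a lowest, median and highest value of 33.4, 46.3 and 66.1 in Ang II arteries, against 6.87, 11.7 and 17.9 in sham arteries. Its log2 fold change was 2.01 ± 0.22 (SE, adjusted p = 3.5e-05), and 1.87 without sham replicate 1. No other of the 10 thyroid hormone genes tested was called. The nuclear receptors Thra and Thrb had log2 fold changes of -0.04 and -0.23.

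Igf1, a secreted growth factor for smooth muscle, ran from 148 through a median of 161 up to 202 in Ang II arteries, and from 69.3 through 87.3 up to 107 in sham arteries (log2 0.92 ± 0.11, adjusted p = 1.2e-04). Igfbp2, which encodes a protein that binds IGF1, was at 16.5, 24 and 74.5 against 3.84, 7.04 and 10.2 as lowest, median and highest value (2.12 ± 0.30, adjusted p = 5.9e-04). The groups did not overlap for either gene, but the Ang II values of Igfbp2 were spread widely, with replicates 1 and 6 at 74.5 and 48.6 and the other 4 between 16.5 and 24.2. These 2 were the called members among 16 genes of the IGF axis. The receptor gene Igf1r was at -0.06 and the binding protein genes Igfbp3, Igfbp4 and Igfbp5 at 0.14, 0.24 and 0.14.

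Piezo2 encodes a channel that opens when the membrane is stretched and is best known from touch neurons (ENSMUSG00000041482, chr18:63010213-63387183, minus strand, mm10). It was at 41.4 to 59.1 in Ang II arteries, with a median of 47.2, and at 17.4 to 30.3 in sham arteries, with a median of 23.4. The difference of 1.04 ± 0.13 (adjusted p = 1.2e-04) was 0.96 without sham replicate 1, in which Piezo2 was lowest. Which cells hold the Piezo2 RNA was not tested. Its paralog Piezo1, the stretch channel of endothelium and smooth muscle, had a log2 fold change of 0.20 and was not called. Among 44 genes of ion channels and calcium handling, where Piezo2 was not listed, 1 was called: Cacna1g, the T-type calcium channel Cav3.1, at 13.3, 18.7 and 24.2 in Ang II arteries against 6.25, 11 and 14.0 in sham arteries (0.89 ± 0.18, adjusted p = 0.011). Its groups overlapped.

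**Figure D2:**
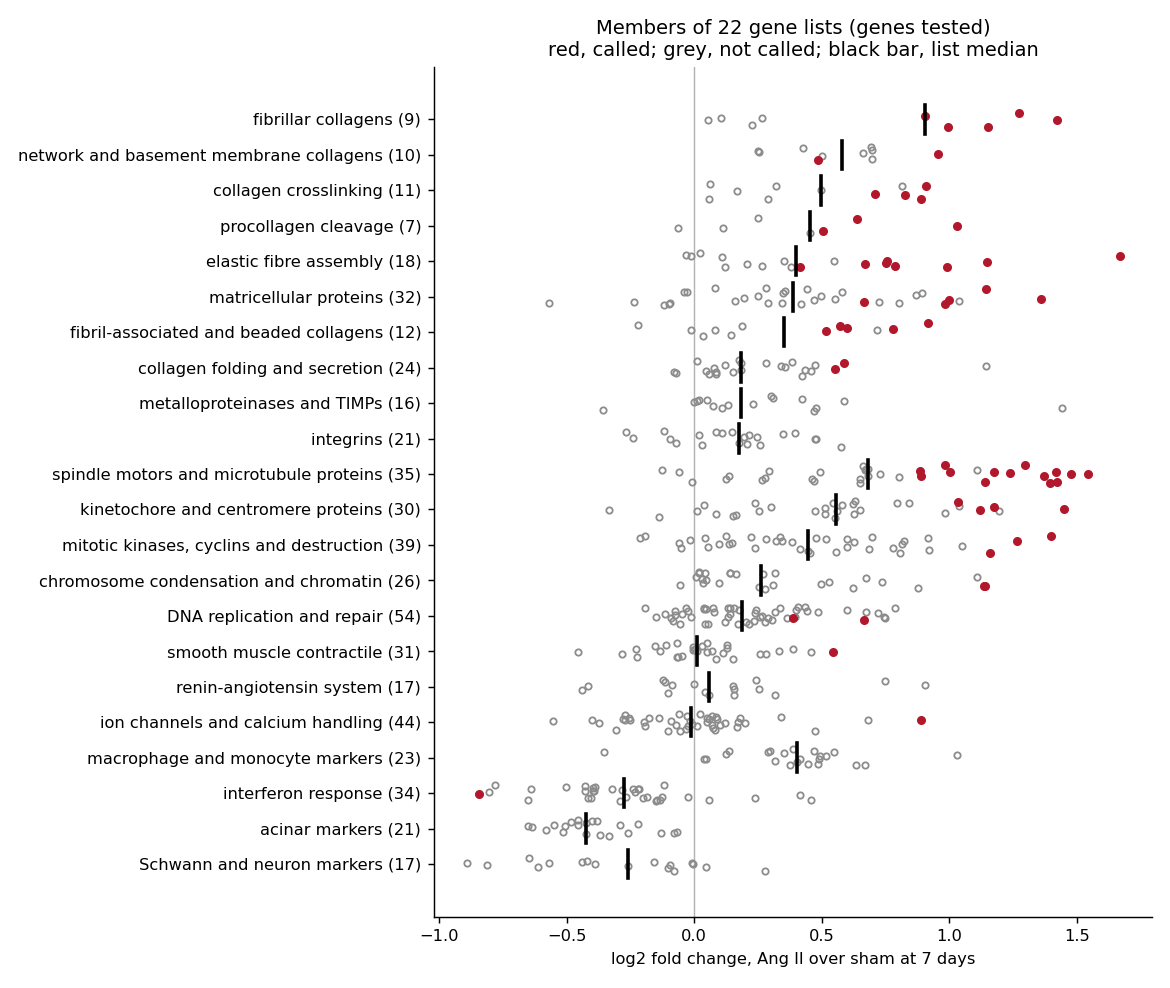
Log2 fold change of Ang II over sham at 7 days (horizontal axis) for the tested members of selected gene lists, with called genes in red, genes not called in grey and the list median as a black bar. The medians lie at 0.90 for fibrillar collagens and 0.68 for spindle proteins, near 0 for smooth muscle contractile genes, below 0 for interferon response and acinar genes, and at -0.26 for Schwann and neuron markers, which turns to 0.13 without sham replicate 1.

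Of 9 fibrillar collagen chains tested 5 were called, Col1a1, Col1a2, Col3a1, Col5a1 and Col5a2, which form the banded fibrils of types I, III and V. The median log2 fold change of the list was 0.90, against 0.0017 over all genes tested. Col3a1 was at 2212, 2515 and 4078 in Ang II arteries and at 699, 1184 and 1467 in sham arteries (1.27 ± 0.18, adjusted p = 4.8e-04). Col1a1 was at 806, 897 and 1527 against 174, 388 and 532 (1.42 ± 0.25, adjusted p = 0.0044), with no overlap in either gene. The highest Col1a1 value was Ang II replicate 1 and the lowest sham replicate 1, and without the sham library its log2 fold change was 1.21 (adjusted p = 0.0083). The chains not called were those of cartilage-type collagen, Col11a1 at 0.23 and Col11a2 at 0.27, with Col5a3 at 0.10 and Col27a1 at 0.06.

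Among the 12 fibril-associated and beaded-filament chains 5 rose, with a list median of 0.35: Col12a1 (0.92), Col6a3 (0.78), Col14a1 (0.60), Col6a1 (0.57) and Col16a1 (0.52). Col12a1 and Col14a1 encode collagens that coat fibrils, and the type VI chains form microfilaments around cells. Col14a1, the most significant of them, lay between 507 and 681 in Ang II arteries with a median of 595, and between 306 and 428 in sham arteries with a median of 424 (adjusted p = 0.0025). Without sham replicate 1 the list had 2 called members, and Col6a1, Col6a3 and Col16a1 had adjusted p-values of 0.058, 0.058 and 0.077. In the 10 network and basement membrane chains every fold change was positive (median 0.58). Col8a1, a short-chain collagen of the vascular intima, rose by 0.95 (113 to 168 in Ang II arteries and 49.8 to 80.8 in sham arteries, adjusted p = 0.0082), and Col4a5 rose by 0.49, a call lost without sham replicate 1 (adjusted p = 0.10), which left 1 in the list. The 2 main basement membrane chains Col4a1 and Col4a2 were at 0.69 and 0.70 with adjusted p-values of 0.051 and 0.095.

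Of the 16 laminin and basement membrane genes only Sparc was called, a collagen-binding matricellular protein that is placed there for its affinity to type IV collagen. It was at 1242, 1291 and 1919 in Ang II arteries and at 498, 751 and 863 in sham arteries (0.99 ± 0.15, adjusted p = 7.9e-04). The laminin chains of the vessel wall, Lama4, Lamb2 and Lamc1, had log2 fold changes of 0.01, 0.19 and 0.29, and nidogen 1 (Nid1) 0.40 (adjusted p = 0.10).

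Enzymes that finish collagen were called in part. Procollagen N-propeptides are cut by ADAMTS2, 3 and 14 and the C-propeptides by BMP1, and 3 of the 7 genes of this list rose, Adamts2 (1.03), Adamts3 (0.64) and Bmp1 (0.51). Adamts2 was at 209, 239 and 316 in Ang II arteries and at 70.9, 129 and 164 in sham arteries, without overlap (adjusted p = 0.0020, and 0.0030 without sham replicate 1). Of the 11 crosslinking enzymes 4 rose: the lysyl oxidases Lox (0.91), Loxl4 (0.89) and Loxl1 (0.83), and the lysyl hydroxylase of telopeptides Plod2 (0.71). Lox lay between 116 and 218 in Ang II arteries and between 63.4 and 113 in sham arteries. Plod1 and Plod3, the other lysyl hydroxylases, were at 0.29 and 0.17. Loxl1, Loxl4, Bmp1 and Adamts3 lost their call without sham replicate 1, with adjusted p-values from 0.075 to 0.10.

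The general secretory machinery of collagen gave fewer calls than these enzymes. Of 24 genes for folding and secretion 2 were called, the prolyl isomerase Fkbp10 (0.59) and the KDEL receptor Kdelr3 (0.55), and 22 of the 24 fold changes were positive with a median of 0.19. The prolyl 4-hydroxylase subunits P4ha1 and P4hb were at 0.09 and 0.08, and the collagen chaperone gene Serpinh1 at 0.42 (adjusted p = 0.40). P4ha3 had a log2 fold change of 1.14 and missed the threshold at 0.068. Each of the calls was lost when any of 10 libraries was left out, sham replicate 1 among them (adjusted p = 0.12 for each gene).

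Elastic fibres consist of an elastin core on a scaffold of fibrillin microfibrils, with fibulins as assembly factors, and 8 of 18 such genes rose (median 0.40). Ltbp2, a fibrillin-binding protein of microfibrils, changed most, at 29.2, 50.2 and 72.9 in Ang II arteries against 9.11, 15.5 and 20.4 in sham arteries (1.67 ± 0.33, adjusted p = 0.013). Fbln5 encodes the fibulin that links elastin to cells, and it was the most significant at 184, 206 and 236 against 92.8, 128 and 151 (0.75 ± 0.12, adjusted p = 0.0014). Both were separated between the groups. Elastin itself, Eln, was at 150.4, 258 and 419 in Ang II arteries and at 69.6, 128 and 143 in sham arteries (1.15 ± 0.24, adjusted p = 0.020). Fibrillin 1 (Fbn1) rose by 0.76, whereas the fetal fibrillin gene Fbn2 was at 0.02. Mfap4 (0.99), Mfap2 (0.79), Mfap5 (0.67) and Efemp2 (0.42), all components of microfibrils or their assembly, completed the called members. The calls of Eln, Fbn1, Mfap2, Mfap5 and Efemp2 were lost without sham replicate 1, with adjusted p-values from 0.058 to 0.080, leaving 3. Leaving out Ang II replicate 1 ended the same 5 calls.

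Matricellular proteins sit in the matrix and signal to cells more than they bear load. Of 32 tested 5 rose, with a median of 0.39. Cilp, first described in cartilage, was at 166, 254 and 296 in Ang II arteries and at 55.4, 100.4 and 123 in sham arteries (1.36 ± 0.18, adjusted p = 2.0e-04, ENSMUSG00000042254, chr9:65265180-65280605, plus strand, mm10). Periostin, Postn, was at 543, 642 and 736 against 259, 277 and 332, and its log2 fold change of 1.15 ± 0.13 had the lowest p-value of all genes. The CCN family gave Wisp1 (0.98) and Wisp2 (1.00) as called members, whereas Ctgf, the family member best known in fibrosis, was at 217 to 514 against 199 to 369 (0.42 ± 0.18, adjusted p = 0.46). Igfbp7 rose by 0.67. Fibronectin, Fn1, had a log2 fold change of 0.89 ± 0.26 (adjusted p = 0.12), with 619.9 to 1302 in Ang II arteries and 292 to 715 in sham arteries. Tenascin C, Tnc, was at 34.0 to 83.8 against 20.9 to 64.0 (0.80 ± 0.33, adjusted p = 0.40). Osteopontin, Spp1, was at 174 to 363 against 165 to 382 (-0.10 ± 0.26). Without sham replicate 1, Wisp2 and Igfbp7 had adjusted p-values of 0.052 and 0.057.

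The proteoglycans gave 3 calls. Versican, Vcan, a large hyaluronan-binding proteoglycan, was at 99.7, 129 and 158 in Ang II arteries and at 63.5, 79.1 and 84.0 in sham arteries (0.72 ± 0.14, adjusted p = 0.0065), 1 call among 26 genes. The small proteoglycans Lum (1.00) and Bgn (0.75), which bind collagen fibrils, were 2 among 12, and Bgn had an adjusted p of 0.067 without sham replicate 1. None of 16 metalloproteinases and TIMPs was called by limma, although 15 of the 16 fold changes were positive. Timp1, the inducible inhibitor of metalloproteinases, had values of 12.6, 18 and 44.5 in Ang II arteries and 4.56, 7.22 and 9.85 in sham arteries, which did not overlap (1.44 ± 0.35, adjusted p = 0.054). The Timp1 locus lies on the opposite strand within the neuronal gene Syn1, and the strand setting of the counting is not given in the sources used here. None of 21 integrins or 7 plasminogen system genes was called, with 16 and 7 positive fold changes. Over all genes tested 0.819% were called, a share at which lists of 7 to 21 genes often hold none. At 14 days 7 of the integrins and 2 of the plasminogen system genes were called higher, where 4.04% of all genes were. Adamtsl2, an ADAMTS-like protein that binds fibrillin, was the 1 call among 18 ADAMTS genes (71.3 to 124 against 27.7 to 56.1, log2 1.17, adjusted p = 0.011).

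Taking the 14 matrix lists as 1 set, 39 of 218 genes were called higher and none lower, a share of 17.9% against 0.752% over all genes, and 189 of 218 fold changes were positive. Of the 39, 20 were called without each of the 12 libraries in turn, and 25 were called with the AY036118 share as a term. Without sham replicate 1 the set had 22 called members and a median of 0.23, against 0.29 with it. The matrix set mean, relative to the mean of the sham libraries, lay between 0.26 and 0.46 log2 units in the 6 Ang II arteries and between -0.28 and 0.16 in the sham arteries, with sham replicate 1 lowest and sham replicate 6 highest. The lists had been chosen with earlier results of these data known, so their counts are descriptions and not independent evidence.

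**Figure D3:**
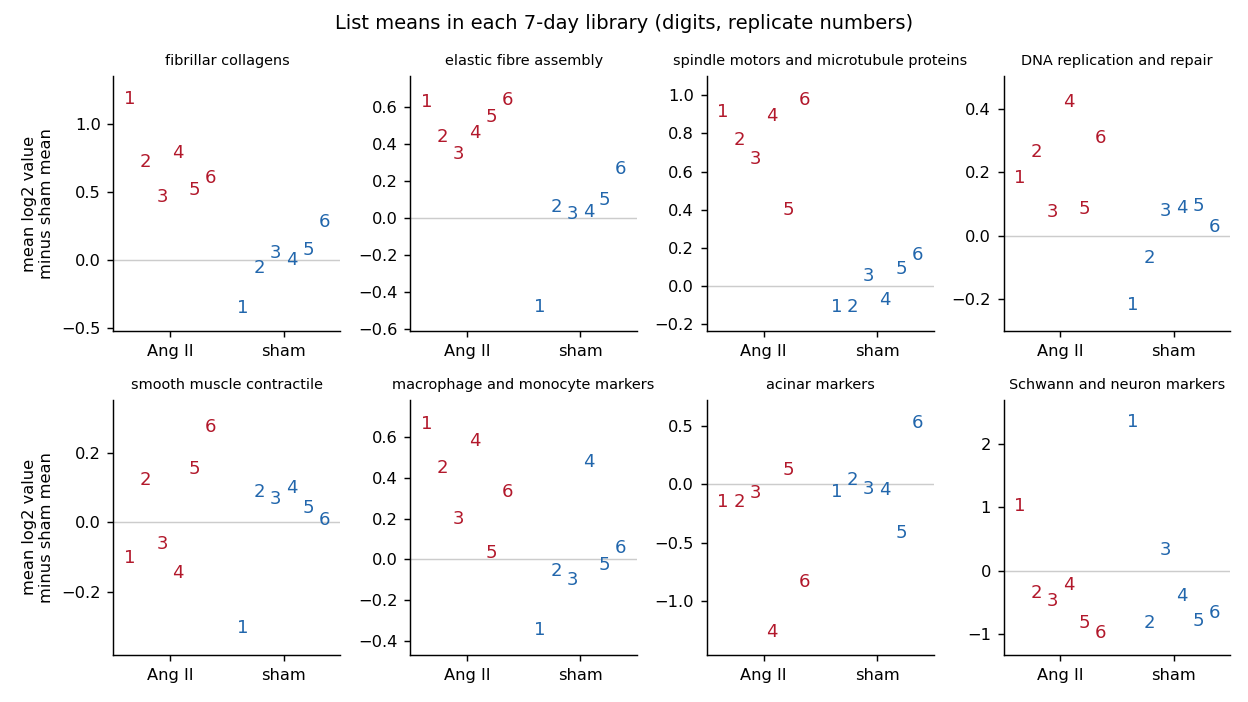
Mean over list members of the log2 value minus the sham mean (vertical axes, 1 scale per panel) in each 7-day library, Ang II left in red and sham right in blue, with digits for the replicate. Sham replicate 1 is lowest for fibrillar collagens at -0.35, elastic fibre genes at -0.48 and contractile genes at -0.30 and highest for Schwann and neuron markers at 2.34, and Ang II replicate 5 is the lowest infused library for spindle genes at 0.40.

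Signals known to act upstream of collagen genes in other settings were examined next. Over all genes tested 0.819% were called in either direction, a share at which lists of 20 to 31 genes often hold none. Among 23 genes of TGF-beta ligands, receptors and regulators 1 rose, Fstl1, a secreted follistatin-like glycoprotein (575 to 728 in Ang II arteries and 346 to 479 in sham arteries, log2 0.61, adjusted p = 0.011). Tgfb1 was at 6.12 to 12.3 against 5.89 to 11.1 (0.22 ± 0.21, adjusted p = 0.86), and Tgfb2 and Tgfb3 were at 0.34 and 0.08. Of 20 BMP and GDF genes 1 was called higher and 1 lower. Gdf6, a BMP-family ligand of joints and skeleton, rose to a median of 4.31 in Ang II arteries against 1.19 in sham arteries (1.31 ± 0.24, adjusted p = 0.0046). Pmepa1, a membrane protein induced by TGF-beta that restrains its signalling, was called outside the lists (0.65, adjusted p = 0.039, and 0.096 without sham replicate 1). None of 31 PDGF, FGF, EGF and VEGF ligands and receptors and none of 29 Wnt genes passed limma's threshold.

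Cell division genes made up the other large group. Over 3 lists of mitotic genes, for spindle and microtubule proteins, kinetochore and centromere proteins, and mitotic kinases, cyclins and their destruction, 21 of 104 genes rose and none fell, a share of 20.2%. The median log2 fold change was 0.59, and 94 of 104 were positive. The spindle list held 14 of the calls among 35 members, the kinetochore list 4 among 30 and the kinase and cyclin list 3 among 39. Of the 21, 15 were called without each of the 12 libraries, and 18 members of the lists were called without sham replicate 1. With the AY036118 share as a term 10 of the 21 were called.

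Mki67, the proliferation antigen that coats mitotic chromosomes, was at 18.8, 32.4 and 37.3 in Ang II arteries and at 5.62, 12.5 and 15.1 in sham arteries (1.40 ± 0.20, adjusted p = 5.2e-04, and a log2 fold change of 1.21 without sham replicate 1). Top2a, the topoisomerase that separates sister chromatids, was at 14.5, 22.2 and 28.6 against 5.45, 10.5 and 13.1 (1.13 ± 0.19, adjusted p = 0.0020). The groups of neither gene overlapped. Ccna2, the cyclin of S phase and G2, was at 3.56 to 10.8 against 1.07 to 4.23 and did overlap (1.27 ± 0.24, adjusted p = 0.0085).

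Spindle genes changed most in this group. Ckap2l, a mitotic spindle protein of neural and other progenitors, lay at 2.5, 2.80 and 4.07 in Ang II arteries and at 0.326, 0.781 and 1.23 in sham arteries (1.48 ± 0.20, adjusted p = 3.8e-04, ENSMUSG00000048327, chr2:129268210-129297212, minus strand, mm10). Knstrn, a partner of astrin at kinetochores and spindle, was at 2.37 to 3.51 against 0 to 1.27 (1.54 ± 0.24, adjusted p = 0.0013). The kinesins Kif20a (1.42), Kif18b (1.42), Kif2c (1.18), Kif4 (1.14), Kif11 (0.89) and Kifc1 (0.89) rose, motors that order the spindle or drive cytokinesis, but Kif11 and Kifc1 had adjusted p-values of 0.12 and 0.058 without sham replicate 1. One read was worth 0.0462 to 0.326 normalized reads, so the lowest sham values of these genes rest on a few reads or none. Genes were tested if they reached a value of 1 in 5 libraries or more. The sham values of Kif18b, Kif2c and the kinase gene Ttk were at most 0.739, 0.804 and 0.977. Their Ang II values were at least 1.26, 1.18 and 1.12, so at 7 days only Ang II libraries brought them past this filter. Their calls, which are among the 21, and their separation between groups are not independent of it.

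Cytokinesis genes were among the calls as well. Prc1, which bundles the microtubules of the midzone, was at 5.37, 8.08 and 9.39 in Ang II arteries and at 1.16, 3.0 and 3.95 in sham arteries (1.37 ± 0.23, adjusted p = 0.0020). Anln, the anillin of the contractile ring, was at 17.5, 19.9 and 28.2 against 8.86, 9.72 and 12.6 (0.98 ± 0.16, adjusted p = 0.0014). Both were separated between groups. Cep55, which recruits the abscission machinery, rose by 1.39 (adjusted p = 0.020, and 0.058 without sham replicate 1). At the kinetochore, Cenpf (1.45), Cenpe (1.18), the checkpoint kinase Ttk (1.12) and the scaffold Casc5 (1.03) rose, while Bub1 at 1.19, Nuf2 at 1.04 and Aurkb at 0.98 had adjusted p-values of 0.088, 0.050 and 0.063 and were not called.

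The genes of DNA synthesis moved less. Of 54 replication and repair genes 2 were called, the helicase subunit Mcm6 (24.4 to 32.5 in Ang II arteries and 18.4 to 24.4 in sham arteries, log2 0.39) and Brca1 (0.66), and the list median was 0.19. Both lost their call without sham replicate 1 (adjusted p = 0.090 each). The G1 cyclins Ccnd1, Ccnd2 and Ccnd3 were at -0.02, -0.06 and 0.14, and the cell cycle inhibitor genes Cdkn1a and Cdkn1b at 0.15 and -0.19. In the 6 Ang II arteries the mean of the 104 mitotic genes, relative to sham, lay between 0.26 and 0.75 log2 units, with replicate 5 lowest, and in the sham arteries between -0.16 and 0.09.

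The promoters of the mitotic genes are shown because these genes moved together. From RefSeq (GRCm38.p6, the first listed start of each gene), 300 bases from 250 before to 50 after the start were read for 17 of the 21 called genes, and Kif20a, Pbk, Tpx2 and Ccna2 are named only. The motifs searched on both strands were the cell cycle genes homology region, or CHR, spelled TTTGAA or TTCGAA, an element through which complexes of the MuvB core repress and then activate late cell cycle genes, and CCAAT, the box bound by NF-Y. A CHR on the opposite strand reads TTCAAA in the printed direction (the second spelling is its own complement), and an opposite NF-Y box reads ATTGG. The 4 spindle and kinetochore genes with the smallest p-values among those holding both motifs are printed 5′ to 3′ in the direction of the gene, with every match of either motif in capitals. The regions are chr2:129297163-129297462 for Ckap2l (minus strand), chr1:189688037-189688336 for Cenpf (minus strand), chr7:80294201-80294500 for Prc1 (plus strand) and chr11:102925075-102925374 for Kif18b (minus strand).
Ckap2l: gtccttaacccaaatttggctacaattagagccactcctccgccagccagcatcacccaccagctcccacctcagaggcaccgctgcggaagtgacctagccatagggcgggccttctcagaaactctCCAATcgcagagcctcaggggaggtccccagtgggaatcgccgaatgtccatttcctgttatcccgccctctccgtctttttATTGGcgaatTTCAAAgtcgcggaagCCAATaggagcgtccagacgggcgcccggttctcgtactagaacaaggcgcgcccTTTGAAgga
Cenpf: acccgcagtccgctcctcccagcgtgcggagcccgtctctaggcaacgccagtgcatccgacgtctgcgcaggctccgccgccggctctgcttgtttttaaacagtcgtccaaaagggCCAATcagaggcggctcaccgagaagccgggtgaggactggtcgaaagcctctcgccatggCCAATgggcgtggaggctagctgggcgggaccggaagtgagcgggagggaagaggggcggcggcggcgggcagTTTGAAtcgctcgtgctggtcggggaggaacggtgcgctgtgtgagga
Prc1: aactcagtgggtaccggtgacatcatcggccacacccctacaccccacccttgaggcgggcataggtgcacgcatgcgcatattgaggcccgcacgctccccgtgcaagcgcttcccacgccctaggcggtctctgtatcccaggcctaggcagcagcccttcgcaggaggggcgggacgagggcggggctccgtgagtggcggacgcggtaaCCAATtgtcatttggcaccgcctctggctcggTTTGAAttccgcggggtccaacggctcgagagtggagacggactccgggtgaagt
Kif18b: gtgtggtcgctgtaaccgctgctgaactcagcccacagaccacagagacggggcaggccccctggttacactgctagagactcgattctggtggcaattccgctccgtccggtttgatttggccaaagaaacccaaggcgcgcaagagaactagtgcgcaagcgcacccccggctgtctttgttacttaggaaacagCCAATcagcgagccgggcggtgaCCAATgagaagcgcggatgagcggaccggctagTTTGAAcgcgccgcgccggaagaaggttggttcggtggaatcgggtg

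A CHR match was present in 15 of the 17 promoters (88.2%), against 13.8% of the 11279 tested genes with a promoter in the table. CCAAT was present in 12 of 17 (70.6%) against 37.8%, and both motifs in 11 of 17 (64.7%) against 5.71%. In the 4 printed promoters the CHR begins at -30 and 42 in Ckap2l, at 3 in Cenpf, at -5 in Prc1 and at 4 in Kif18b, counting from the RefSeq start. It began within 50 bases of the start in 12 of the 17 promoters, against 3.34% of all tested genes. The mitotic genes that were tested and not called held a CHR in 36 of 68 promoters (52.9%), CCAAT in 47 of 68 (69.1%) and both in 31 of 68 (45.6%). In 32 of these 68 promoters (47.1%) a CHR began within 50 bases of the start. Of the 39 called matrix genes 24 had a promoter in RefSeq, and Col1a1, Col5a2, Lox, Eln and Lum were among those without. These 24 promoters held a CHR in 3 (12.5%) and CCAAT in 6 (25%). The TATA box motif TATAAA was in 2 of 24, which was 8.33% against 7.43% over all genes. The Postn window, chr3:54359017-54359316, ended before the annotated gene start at 54361109. A match is a run of letters in this window, and no binding was measured.

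**Figure D4:**
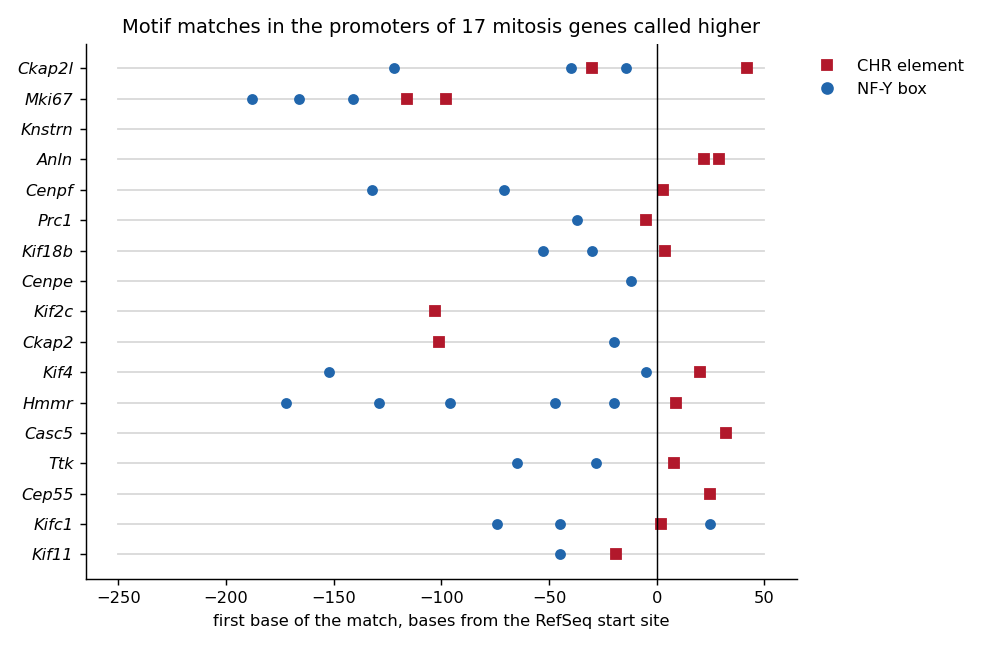
Position of each motif match (horizontal axis, bases from the RefSeq start site, 250 before to 50 after) in the promoters of the 17 mitotic genes called higher, ordered by p-value from the top, with CHR elements as red squares and NF-Y boxes as blue circles. The CHR elements of 12 genes lie within 50 bases of the start, and Knstrn has no match of either motif.

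Outside the lists, 38 called genes were higher, and those named here were chosen after their values were seen unless they were among the 20 largest rises. Cd209g, a C-type lectin receptor of the DC-SIGN family of myeloid cells, was at 3.73, 4.64 and 5.01 in Ang II arteries and at 1.16, 1.76 and 2.28 in sham arteries (1.16 ± 0.15, adjusted p = 2.0e-04, ENSMUSG00000079168, chr8:4134098-4137707, plus strand, mm10). Gxylt2, a xylosyltransferase that modifies Notch, was at 10.4, 13 and 15.2 against 4.73, 5.29 and 7.88 (1.10 ± 0.16, adjusted p = 5.9e-04). Neither gene overlapped between groups.

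Esm1, the endothelial proteoglycan endocan, was at 5.28, 9.01 and 15.2 in Ang II arteries and at 2.41, 3.36 and 4.09 in sham arteries (1.36 ± 0.23, adjusted p = 0.0023). Pcsk5, a proprotein convertase, was at 53.0, 62.6 and 71.6 against 27.6, 38.7 and 43.1 (0.73 ± 0.12, adjusted p = 0.0015). Csrp2, a LIM-domain protein of smooth muscle cells, was at 138, 163 and 179 against 79.8, 91.2 and 126 (0.72 ± 0.13, adjusted p = 0.0032). Again no gene overlapped between groups.

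Receptors and signalling proteins among the calls were Cd109, a co-receptor that limits TGF-beta signalling (0.97), the orphan receptor Gpr153 (0.76), the thrombin receptor F2r (0.71), the adenylyl cyclase Adcy7 (0.68) and Hif1a, the oxygen-regulated transcription factor (0.48). F2r was at 89.4 to 127 in Ang II arteries and at 50.2 to 68.7 in sham arteries, and Hif1a at 149 to 204 against 109 to 142. Mrc2, the collagen uptake receptor Endo180, rose by 0.90 (43.9 to 63.8 against 21.9 to 32.2), and the intermediate filament gene Nes by 0.59. The actin-membrane linker Msn rose by 0.44 and the formin Diap3 by 0.80. F2r, Hif1a and Mrc2 lost their call without sham replicate 1, with adjusted p-values of 0.088, 0.063 and 0.057.

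The oxidant enzyme list had 2 calls among 29 genes, extracellular superoxide dismutase Sod3 (40.8 to 52.7 in Ang II arteries and 25.6 to 39.6 in sham arteries, log2 0.53) and the peroxidase of the endoplasmic reticulum Gpx7 (0.67), both lost without sham replicate 1 (adjusted p = 0.075 and 0.058). Of the rises not yet named, 4631405J19Rik (1.32), Nxpe5 (1.30), the scaffold Iqgap3 (1.30), the linker histone Hist1h1a (1.23) and the hyaluronan receptor of the spindle Hmmr (1.24) were at low levels, with sham medians of 0.838 to 3.24. Further calls were Ckap2 (1.30), RP23-103I12.13 (1.08), C1qtnf6 (0.97), Clec11a (0.84), the alkaline phosphatase Alpl (0.83), Cercam (0.72), Ckap4 (0.67) and Gpr133 (0.57). Tsku (0.56), Cnnm2 (0.54), Spats2l (0.50), Ptgfrn (0.49), 3632451O06Rik (0.45), Pofut2 (0.41), Glb1 (0.39), Adam9 (0.38), Cyb5r3 (0.34) and Wipf1 (0.33) were called as well. Without sham replicate 1 the calls of Nxpe5, Iqgap3, Hist1h1a, RP23-103I12.13, Clec11a, Alpl, Cercam, Gpr133, Tsku, Cnnm2, Ptgfrn, Pofut2, Cyb5r3 and Wipf1 were lost, with adjusted p-values from 0.051 for Ptgfrn to 0.12 for Gpr133.

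Genes lower in Ang II arteries were few. Nrip2, which encodes a protein that binds nuclear receptors, fell by 0.75 ± 0.14 on the log2 scale (adjusted p = 0.0041), with 10.7, 15.3 and 19.2 in Ang II arteries and 19.4, 25.4 and 31.2 in sham arteries. BC051019 fell by 1.17 ± 0.20 (adjusted p = 0.0021), the 1 fall of at least 2-fold, with 1.46 to 3.10 against 3.93 to 6.89 (ENSMUSG00000031022, chr7:109712181-109723850, minus strand, mm10). It overlaps Akip1 on the other strand. Xkr4 fell by 0.75, with 12.5 to 16.9 in Ang II arteries and 17.7 to 35.2 in sham arteries. These 3 were called without each of the 12 libraries, and the groups of each were separated.

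The other lower calls depended on the libraries used. Gm13861, which overlaps the caldesmon gene Cald1 on the opposite strand, fell by 0.89 (5.70 to 11.5 in Ang II arteries and 13.3 to 20.6 in sham arteries) and had an adjusted p of 0.057 without Ang II replicate 1. Cytl1, a secreted cytokine-like protein, fell by 0.58 (110.3 to 192 against 203 to 256), Klhl38 by 0.86 and Armc3 by 0.75. Ido1, the interferon-induced enzyme that degrades tryptophan, fell by 0.84 (1.15 to 2.08 against 1.72 to 4.23) and had an adjusted p of 0.055 without sham replicate 1. Pink1, the kinase that marks damaged mitochondria, fell by 0.36 (93.3 to 110.4 against 110.4 to 152), with an adjusted p of 0.090 without that library. Ido1 was the only call among 34 interferon response genes, 30 of which had negative fold changes (median -0.28), and Pink1 the only one among 20 genes of mitophagy and mitochondrial quality (median -0.03).

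The lists of 31 contractile, 17 renin-angiotensin and 40 vasoactive genes gave 1 call, a share close to the 0.819% called over all genes tested. Actg2, the gamma actin of visceral and vascular smooth muscle, rose by 0.54 (141 to 198 in Ang II arteries and 73.9 to 136 in sham arteries, adjusted p = 0.030, and 0.063 without sham replicate 1), 1 of 31 contractile genes with a median of 0.01. Acta2, alpha smooth muscle actin, was at 2239, 2779 and 3410.1 against 1874, 2638 and 3208 (0.07 ± 0.14, adjusted p = 0.94). Myh11, smooth muscle myosin, was at 1349, 1561 and 1874 against 1203, 1832 and 1895, and its lowest sham value was again replicate 1. Neither AT1 receptor gene was called: Agtr1a was at 3.12 to 8.05 in Ang II arteries and at 3.90 to 5.36 in sham arteries other than replicate 1, which was at 33.8, and Agtr1b was at 2.85 to 5.62 against 3.30 to 6.63. Reads of these close paralogs may be divided between them. None of 17 renin-angiotensin genes and none of 40 vasoactive receptor and enzyme genes passed limma's threshold, with Edn1 at 0.22 and Nos3 at 0.08.

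Of 24 chemokines and cytokines and 20 adhesion and inflammation genes none was called by limma. Over all genes tested 0.819% were called, a share at which lists of this size often hold none. Ccl2 was at 18.3 in Ang II replicate 4 and at 1.85 to 4.12 in the other 5 Ang II arteries, against 1.87 to 6.19 in sham arteries, and Vcam1 was at 101 to 157 against 116 to 155. Il6 was at 0.499 to 1.83 against 0 to 0.652 (1.06 ± 0.37, adjusted p = 0.26). Macrophage and monocyte markers had 22 of 23 positive fold changes with a median of 0.40 and no call, among them Mrc1 (0.49, adjusted p = 0.088) and Cd163 (0.42, adjusted p = 0.36). Their summed level was 1010 to 1513 in Ang II arteries and 812 to 1345 in sham arteries. Whether macrophage numbers take part in the calls of Cd209g or other genes was not tested.

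Markers of neighbouring tissue were compared as well. All 21 acinar markers had negative fold changes (median -0.42) and none was called, with summed levels of 69515 to 182104 in Ang II arteries and 132329 to 263917 in sham arteries. The lowest list means were those of Ang II replicates 4 and 6. The acinar median was -0.11 among animals numbered in the 27 series and -0.75 among those in the 28 series. At 14 days 18 of the 21 were called lower, with a median of -0.90, where 2.01% of all genes were called lower. Of 17 fibroblast markers 4 rose, Col14a1, Lum, Pi16 and Mfap5, of which 3 are matrix genes, and the list median was 0.12, with summed levels of 7313 to 9322 against 6417 to 8966. Pi16, a marker of adventitial fibroblasts that is no matrix structural protein, was at 141 to 219 in Ang II arteries and at 60.4 to 120.1 in sham arteries (0.78 ± 0.17, adjusted p = 0.019). Erythroid markers summed to 2344 to 5599 against 1464 to 6526. The part of these tissues in the results was not tested.

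**Figure D5:**
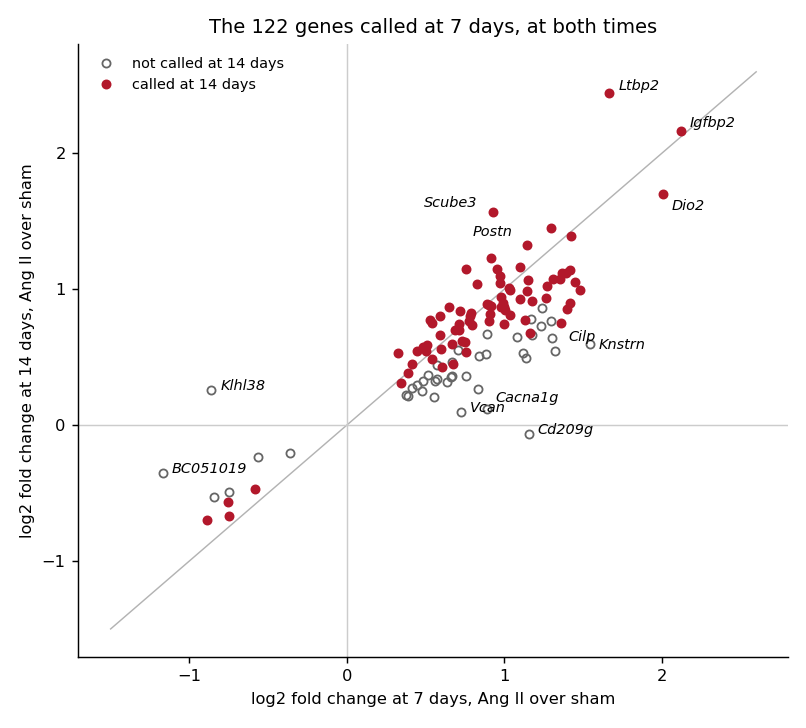
Log2 fold change of Ang II over sham at 14 days (vertical axis) against that at 7 days (horizontal axis) for the 122 genes called at 7 days, red where also called at 14 days, with the line of equal change in grey. Cd209g, Vcan and Cacna1g lie near 0 at 14 days, Ltbp2 and Scube3 above the line, and Klhl38 on the other side of 0.

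The 14-day groups of the series, 5 Ang II and 6 sham libraries that share no animal with the 7-day groups, gave a second measurement of the same genes. Both comparisons came from 1 fit that shares the spread of each gene, so calls at 7 and 14 days are not fully independent. Of the 112 genes higher at 7 days 111 had a positive fold change at 14 days and 77 were called higher, where 4.04% of all genes were (6.06% in either direction). Their median log2 fold change was 0.90 at 7 days, where they had been selected for size, and 0.75 at 14 days. Of the 10 lower genes 9 had a negative fold change at 14 days and 4 were called lower, Nrip2, Gm13861, Armc3 and Cytl1, where 2.01% of all genes were. A test of the difference between the 7-day and 14-day responses called none of the 14896 genes by limma or edgeR, with 1396 at an unadjusted p under 0.05, whereas DESeq2 called 7 and limma with sample quality weights 67.

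Single genes spread around this. Postn, Dio2, Igf1, Igfbp2 and Piezo2 had log2 fold changes of 1.32, 1.70, 0.88, 2.16 and 1.00 at 14 days, each called. Ltbp2 was at 2.44 and Scube3 at 1.57 at 14 days, against 1.67 and 0.93 at 7 days. Cd209g was at -0.06 at 14 days against 1.16 at 7 days, with an adjusted p of 0.15 for the difference, the lowest of all genes. Its mean value at 7 and 14 days was 4.54 and 3.48 in Ang II arteries and 1.78 and 3.74 in sham arteries. The sham level thus differed between the times as well. Vcan at 0.10, Cacna1g at 0.12 and Klhl38 at 0.26 were not called at 14 days, although the differences did not pass the test either. At 7 and 14 days Klhl38 had means of 4.66 and 2.75 in sham arteries and 2.34 and 3.39 in Ang II arteries. Cacna1g had means of 10.4 and 10.1 in sham arteries and 19.4 and 11.2 in Ang II arteries. In the other direction, Fn1 (1.6), Ctgf (1.27), Tnc (1.79), Timp1 (1.45) and Tgfb1 (0.80) were called higher at 14 days and Spp1 (-1.09) lower, none of them called at 7 days. Of the 602 genes higher at 14 days 519 had a positive fold change at 7 days and 77 were called there.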

How the data were processed

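Total RNA of 23 mesenteric artery libraries was sequenced. Per the labels' protocols, arteries were dissected in RNAlater and libraries made with a stranded total RNA kit. The build mm10 is named by the submitters' processing notes beside edgeR 3.6.8, R 3.2.3, HTSeq 0.5.3p3, STAR 2.3.1, FastQC and bcl2fastq 1.8.4. Which annotation, strand setting and normalization they used is not stated by them. The authors deposited 1 table of normalized expression signal for 39179 Ensembl genes. Each of 460324 values above 0 was a whole multiple of its library's smallest step (100% whole within 0.001 read), so whole reads were recovered, and 12787 genes were at 0 throughout.

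Tests covered the 14896 genes reaching a value of 1 in 5 libraries or more. limma 3.58.1 (trend, robust) in R 4.3.3 fitted log2(value + 0.5) in all 23 libraries with 4 group means, because the unit is not counts. This scale understates changes of low genes. The count tests on recovered reads, edgeR 4.0.16 (109 genes higher, 10 lower) and DESeq2 1.42.0 (173 and 39), were alternatives. The script was tested on simulated data. Library properties were compared by exact permutation tests over samples. The groups come from the labels, and replicate numbers follow accession order. Genes were named by rule, and a few that it names are not reported here: every lower gene, the 20 largest rises with a mean of at least 1, up to 6 called members per list or the best member of a list without calls, and 17 genes fixed by name. The other called genes were named after their values were seen. The comparison, the 55 gene lists and their members were chosen with earlier results of these data known. Coordinates come from GENCODE M21 (37607 of the identifiers matched), promoters from RefSeq. Of the 122 called genes 53 overlap a gene on the opposite strand, and their values are uncertain because the strand setting is not known. Among them are Dio2, Igf1, Piezo2, Mki67, Top2a, Ckap2l, Cenpf, Eln, Lox, Ltbp2, Kif20a, Prc1, Mfap4 and Igfbp7.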

Additional observations from a re-analysis of the deposited data

Results flagged for a closer look

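In groups of 6, a library was picked out when its gap to the nearest other value exceeded 0.625 of the group's range (Dixon's 95% value). Chance gives about 1 such group in 20, and 356 groups were tested.

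Sham replicate 1 was high for sympathetic genes, with Slc6a2 at 512.8 (5.67 to 22.8 in the other 5 sham libraries), Dbh at 410.1 (0 to 17.1) and Th at 217.7 (0 to 13.1), and for Agtr1a at 33.84 (3.90 to 5.36). It was low for Myh11 at 1203 (1772 to 1895), F2r at 50.17 (64.7 to 68.7), Bmp1 at 39.64 (52.7 to 58.6), Nes at 30.8 (47.5 to 53.5), Pcsk5 at 27.59 (38.3 to 43.1) and Wisp1 at 9.731 (17 to 20.5). Ang II replicate 1 was high for Dbh at 45.09, Slc6a2 at 39.29, Th at 34.97, Agtr1a at 8.054 and Col1a1 at 1527, where the other 5 Ang II libraries held Col1a1 at 806 to 919.

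Ang II replicate 4 was high for Saa3 at 51.05, Timp1 at 44.53, Hmox1 at 38.12, Ccl2 at 18.3 and Egr3 at 2.503. The other 5 Ang II libraries reached at most 11.1 for Saa3, 24.2 for Timp1, 7.17 for Hmox1, 4.12 for Ccl2 and 1.13 for Egr3. Ang II replicate 6 held Lgals4 at 44.11, against 6.31 to 9.65. Sham replicate 4 was high for Cfd at 784.6, Alas2 at 117.3, Ndufa2 at 76.79 and Ccl9 at 48.15, sham replicate 5 for S100a8 at 10.1 and Ckap4 at 38.77, and sham replicate 6 for Spats2l at 10.59 and Brca1 at 2.954. No cause of these values was tested.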

How the results depend on the processing

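Against 112 genes higher and 10 lower, the counts were 69 and 5 with the AY036118 share as a term, 185 and 30 with sample quality weights, 173 and 39 with DESeq2 on recovered reads, and 102 and 6 with the animal number series as a term, under which 88 of the 122 calls held and 34 were lost, Eln, Ccna2, Ttk, Kif11, Kifc1 and Ido1 among them. A fit on the 12 day-7 libraries alone gave 112 and 7, in which 95 of the 122 held and 27 were lost, Kif4, Hmmr, Loxl1 and Ido1 among them. Leaving out each library in turn gave 62 (without Ang II replicate 6) to 139 (without sham replicate 6) higher and 4 (without Ang II replicate 1) to 14 (without sham replicate 5) lower. The difference between the 7-day and 14-day responses had 0 called genes by limma, 7 by DESeq2 and 67 with quality weights. The edgeR test and other pseudocounts, filters and scalings kept each count within 1.5 times, and no called gene turned its sign under any alternative run. Leaving out the 3 sham libraries over 15% AY036118, an alternative chosen after seeing the data, gave 114 and 8, of which 82 and 2 were among the original calls. Genes not called that turned sign when 1 library was left out ranged, in log2, from -0.089 to 0.60 for S100a8 (also -0.02), -0.59 to 0.027 for Agtr1a, -0.20 to 0.011 for Agtr1b, -0.027 to 0.13 for Acta2, -0.0077 to 0.13 for Nos3, -0.14 to 0.46 for Ccl2, -0.27 to 0.040 for Spp1, -0.12 to 0.085 for Nox4, -1.29 to 0.11 for Slc6a2, -1.82 to 0.49 for Dbh and -1.47 to 0.57 for Th. The cause was not tested. No paired analysis was possible because the labels give no replicate numbers. Depth limits the low genes most, since 1 read was worth up to 0.326 normalized reads.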
